A study of Mus musculus with 4 samples.

Results

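The mitochondrial ribosomal protein genes, whose symbols in mouse begin with Mrpl for the large subunit and Mrps for the small subunit, were examined in blood stem and progenitor cells on 4 Affymetrix arrays. Genes were taken where a probe set carried that symbol alone, followed by a number and at most the letter a, b or c, and each gene was represented by its probe set with the highest mean over the arrays. This gave 76 of 18194 measured genes, 47 with large subunit symbols and 29 with small subunit symbols. Of 78 such protein-coding genes in the RefSeq gene table, Mrpl30 and Mrpl53 had no probe set of their own and were not analysed here. The samples were 2 arrays of WT mice and 2 arrays of Alox15-/- mice, all of strain C57BL/6 (B6) and aged 8 weeks, with no treatment named. Alox15 encodes arachidonate 15-lipoxygenase, and Alox15-/- is the only allele the labels give. Bone marrow cells negative for lineage markers and positive for c-Kit and Sca-1 were sorted and are called HSCs in the labels; this gate also admits multipotent progenitors. The titles call the 2 arrays of each genotype biological replicates, but how many animals each array stands for is not stated. The p-values therefore measure only how far these samples spread, which need not be the spread between animals.

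Mitochondria keep a small genome whose messenger RNAs encode only core subunits of the respiratory chain and ATP synthase. They are translated inside the organelle by a dedicated ribosome. Its ribosomal RNAs come from the mitochondrial genome, whereas all its proteins are encoded in the nucleus, made in the cytosol and imported, so that the 2 genomes have to supply parts of the same particle. The large subunit forms peptide bonds and releases the chain at the inner membrane, and the small subunit binds and decodes the messenger. Some of the proteins have counterparts in bacterial ribosomes and others are particular to mitochondria. Blood stem cells depend little on respiration while quiescent and raise their mitochondrial activity as they differentiate.

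Several checks bear on all results. Alox15 itself read higher where the label names its deletion (10.68 and 10.75, against 4.63 and 4.35 in WT), so every direction below is that of the arrays as labelled. Where its probe set lies relative to the deletion is not stated, and it may check nothing about the deletion. The gate gene Kit read 10.63 and 10.48 in WT against 10.34 and 10.23 in the arrays labelled Alox15-/-. The progenitor marker Cd34 read 11.50 to 11.62 on all 4 arrays. Of 6 markers measured for the gate and the cells within it, groups did not overlap for 4, against 38.5% of all genes. Cd48 and Slamf1 were higher in the arrays labelled Alox15-/- (log2 differences of 0.43 and 0.32). Kit and Procr were lower (-0.27 and -0.25), and Cd34 and Flt3 overlapped. Their part in the members' values was not tested. Ly6a, which encodes Sca-1, had no measured probe set of its own. The T cell marker Cd3e, which the gate removes, read 2.78 to 3.07 and the B cell marker Ms4a1 3.10 to 3.57, below the highest of 27 bacterial control probe sets (4.95 to 5.17). Cd4, Cd8a, Itgam and Tfrc read above that control, Tfrc at 9.90 to 10.25. All 76 members lay above the highest bacterial control on all 4 arrays. Of the 6 measured markers that the gate removes, groups did not overlap for 5 (2 higher and 3 lower in the arrays labelled Alox15-/-), against 38.5% of all genes.

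None of the 76 members passed limma's test at an adjusted p of 0.05 over all genes. Their adjusted p ran from 0.63 to 0.994. In all, 1 of 18194 genes was called (0.0055%), Alox15 itself, so the absence of calls among the members is the common outcome in this comparison. At an unadjusted limma p under 0.05, 3 members were placed, Mrps28 and Mrpl49 with higher values and Mrps23 with a lower value in the arrays labelled Alox15-/-, against a background of 7.77% of all genes (4.2% higher and 3.57% lower). The differences, arrays labelled Alox15-/- minus WT on the log2 scale, were small. They ran from -0.66 to 0.54, and 61 of 76 lay within 0.25 of 0. The standard errors ran from 0.13 to 0.41 with a median of 0.15. For 74 of 76 members the 95% interval of the difference lay within 1 of 0, which is a 2-fold change. The exceptions, picked by that criterion, were Mrpl49 and Mrpl54.

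**Figure D1:**
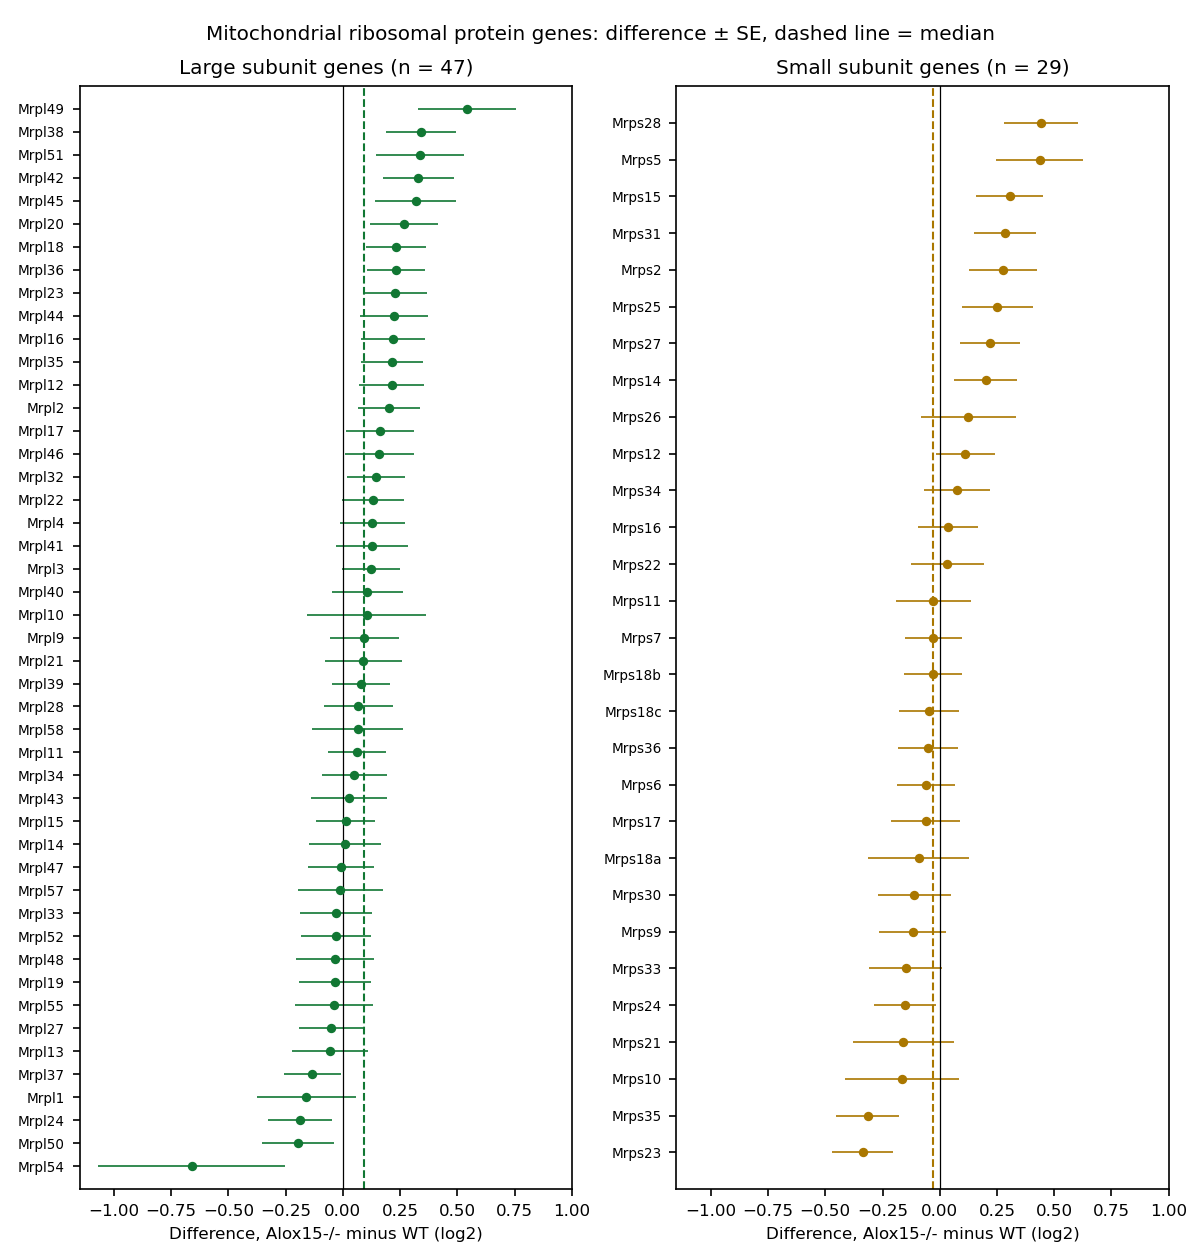
Difference between the arrays labelled Alox15-/- and WT on the log2 scale, with its standard error from limma, for the 47 large subunit and 29 small subunit genes, each panel in order of the difference. Dashed lines mark the medians, 0.09 for the large and -0.03 for the small subunit, and 61 of the 76 genes lie within 0.25 of 0.

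The members' differences leaned above 0, by an amount close to the gap between replicates. The difference was above 0 in 46 and below 0 in 30, with a median of 0.07. Over all genes it was above 0 in 53.7%, with a median of 0.02. The groups did not overlap for 36 members, 28 of them higher and 8 lower, against a background of 38.5% of all genes (21.4% higher and 17.1% lower). As each gene's value minus its mean over the 4 arrays, the members averaged -0.08 and 0.01 on WT replicates 1 and 2 against 0.00 and 0.06 on replicates 1 and 2 labelled Alox15-/-. WT replicate 1 was thus the low array and Alox15-/- replicate 2 the high one, with the other 2 arrays nearly level. WT replicate 1 held the lowest value for 33 of 76 members and Alox15-/- replicate 2 the highest for 28. The gap between the WT arrays, 0.09, was larger than the difference between the groups, 0.06. Without any 1 array the number of members with a positive difference ran from 43 to 56. Leaving out WT replicate 2 gave a median of 0.11, and leaving out Alox15-/- replicate 1 gave 0.12.

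Marker values of other cell types and one of the measures of RNA ends also differed between the arrays. Mature neutrophil markers, of which 12 of 13 were measured, averaged -0.84 and 0.04 in WT against 0.52 and 0.28 in the arrays labelled Alox15-/-, and 11 of 12 had higher values there. Their smallest limma adjusted p was 0.575. Among the 11, Mmp8 lay below the highest bacterial control on every array, and Lcn2 on WT replicate 1 and Alox15-/- replicate 2. The secreted chitinase-like gene Chil3, a neutrophil granule marker, read 3.95 in WT replicate 1, below the highest bacterial control, and 7.47 in WT replicate 2. WT replicate 1 was therefore the lowest array for these markers as well as for the members. Granulocyte-monocyte progenitor genes, 9 of 11 measured, averaged -0.42 and -0.33 in WT against 0.28 and 0.47 in the arrays labelled Alox15-/-. Erythroblast markers, 5 of 8 measured, averaged -0.06 and -0.09 in WT against 0.12 and 0.02 in the other group. Of these 2 had higher and 3 lower values, with a median of -0.01, the largest difference being 0.87 for Klf1, and Hba-a1 lay below the control on every array. The Gapdh control probe sets for the transcript's ends differed by 2.37 and 2.39 in WT against 2.14 and 2.17 in the arrays labelled Alox15-/-, whereas those of Actb overlapped, at -0.23 and -0.19 against -0.13 and -0.28. The part of these in the members' values was not tested, and fewer cells of a type cannot be told apart from less RNA per cell.

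Large subunit genes had a median difference of 0.09, with 33 of 47 above 0, and small subunit genes a median of -0.03, with 13 of 29 above 0. The groups did not overlap for 22 large subunit genes (19 higher, 3 lower) and for 14 small subunit genes (9 higher, 5 lower), where the background was 38.5% of all genes (21.4% higher and 17.1% lower). The large subunit genes averaged -0.09 and 0.00 in WT against 0.00 and 0.08 in the arrays labelled Alox15-/-. The small subunit genes averaged -0.06 and 0.03 in WT against 0.00 and 0.03 in the other group. Both sets were lowest on WT replicate 1. From WT replicate 2 to Alox15-/- replicate 1 the small subunit mean fell while that of the large subunit stayed at 0.00. The mean of the large subunit minus that of the small subunit was -0.02 and -0.03 in WT against 0.01 and 0.05 in the arrays labelled Alox15-/-. These groups did not overlap, but the gap came to 0.05 and no test was made over the members. The gap between the medians, 0.12, depended on which probe set stood for a gene. It was 0.03 when all probe sets of a gene were averaged, with the small subunit at 0.08, and 0.06 without Alox15-/- replicate 2. The small subunit's median was slightly above 0 without WT replicate 2 or without either array labelled Alox15-/-, between 0.01 and 0.02.

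**Figure D2:**
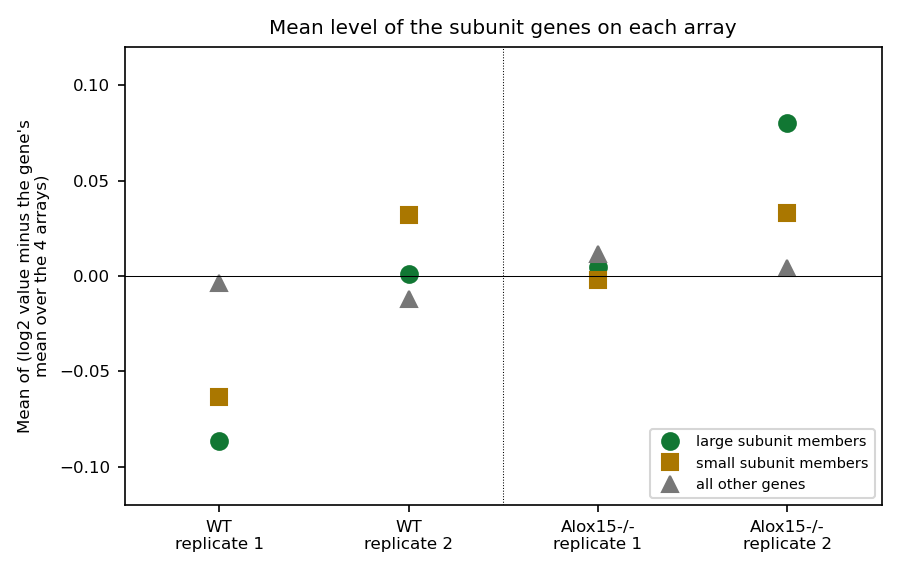
Mean over genes of the log2 value minus the gene's mean across the 4 arrays, for large subunit members, small subunit members and all other genes on each array. Both subunits are lowest on WT replicate 1 (-0.09 and -0.06), while all other genes stay within 0.02 of 0.

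Symbols do not settle where a protein sits. In solved structures of the mammalian particle the products of Mrps18a and Mrps30 belong to the large subunit, and the product of Mrps36 belongs to the alpha-ketoglutarate dehydrogenase complex. These 3 genes had differences of -0.09, -0.11 and -0.05, all below 0. With them placed by structure, 49 large subunit genes had a median of 0.09, with 33 above 0, and 26 small subunit genes a median of 0.00, with 13 above and 13 below 0. The gap between the medians was then 0.09. Mrps30 read 8.91 and 9.16 in WT against 9.03 and 8.82 in the arrays labelled Alox15-/-, and Mrps36 read 8.42 and 8.38 against 8.28 and 8.42. Both groups overlapped for each gene.

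Among large subunit members, the genes for the stalk and the catalytic core had small positive differences at the probe sets used. The stalk recruits translation factors to the ribosome. Mrpl12, which encodes its repeated tip protein, read 7.92 and 7.72 in WT against 7.99 and 8.08 in the arrays labelled Alox15-/-, a difference of 0.21 ± 0.14 (SE, n = 2 each, limma adjusted p = 0.755). Its groups did not overlap, although the nearest arrays were 7.92 and 7.99. Mrpl10, which anchors the tip proteins, read 7.90 and 7.24 in WT against 7.50 and 7.85 in the other group, with the WT arrays enclosing both. Mrpl11, at the base of the stalk, read 10.93 and 10.92 against 10.97 and 11.002, a difference of 0.06. Mrpl2 and Mrpl3, proteins that reach toward the peptidyl transferase centre, differed by 0.20 and 0.12. Mrpl2 read 9.09 and 9.21 in WT against 9.41 and 9.29 in the arrays labelled Alox15-/-. Mrpl3 read 10.13 and 10.20 against 10.28 and 10.30. Neither gene's groups overlapped, and neither passed the test (limma adjusted p = 0.76 and 0.849). The other probe sets of Mrpl3 gave 0.35, 0.27 and -0.31, and those of Mrpl11 gave 0.06, -0.08 and -0.02.

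By size of the difference, the leading large subunit genes without overlap were Mrpl49, Mrpl38, Mrpl42, Mrpl45, Mrpl20 and Mrpl18, all with higher values in the arrays labelled Alox15-/-. Mrpl49, a mitochondria-specific protein gene, read 9.09 and 9.66 in WT against 9.90 and 9.93 in the other group, a difference of 0.54 ± 0.21 (SE, limma adjusted p = 0.642). The WT arrays were 0.57 apart, and without WT replicate 1 the difference was 0.26. Mrpl38, whose protein lies in the central protuberance that faces the small subunit, read 6.86 and 7.07 against 7.41 and 7.21. Mrpl18, of the same protuberance, read 10.20 and 10.27 against 10.42 and 10.53, and here the replicates lay closer together than the groups. Mrpl45, whose protein holds the tunnel exit to the inner membrane, read 7.34 and 7.56 in WT against 7.94 and 7.60 in the arrays labelled Alox15-/-. The nearest arrays of the groups differed by less than either pair of replicates. Mrpl42 differed by 0.33 and Mrpl20, a ribosomal RNA-binding protein needed early in assembly, by 0.27. Mrpl44, in which human mutations cause cardiomyopathy, read 10.43 and 10.37 against 10.49 and 10.75, a difference of 0.22. Its second array labelled Alox15-/- lay apart from the other 3.

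Fewer large subunit genes lay below 0 than above, and the 95% interval of each one named here included 0. Mrpl54 had the lowest difference, -0.66 ± 0.41 (SE), but read 5.92 and 7.17 in WT against 5.77 and 6.00. Only WT replicate 2 was high, and the WT arrays were further apart than the groups. Mrpl50, Mrpl24 and Mrpl37 differed by -0.20, -0.19 and -0.13 without overlap, but the other probe set of Mrpl50 gave 0.24. Mrpl1 differed by -0.16 with overlap at the probe set used, and its other probe sets gave -0.49 and -0.62. Nearest to 0 were Mrpl14, with 6.09 and 5.81 in WT against 5.89 and 6.03 in the other group, and Mrpl47, with 8.27 and 8.50 against 8.42 and 8.33. The 95% intervals of these differences, -0.39 to 0.40 and -0.38 to 0.36, leave room for changes of that size in either direction.

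Small subunit genes spread to both sides. Mrps12, a protein of the decoding centre, read 9.31 and 9.27 in WT against 9.44 and 9.36 in the arrays labelled Alox15-/-, a difference of 0.11 ± 0.13 (SE, limma adjusted p = 0.868). Mrps5, which lies along the channel where the messenger enters, read 8.20 and 8.55 against 8.97 and 8.66, a difference of 0.44 ± 0.19. Mrps28 read 8.22 and 8.37 against 8.58 and 8.89, a difference of 0.44 ± 0.16 with the smallest adjusted p of any member (limma adjusted p = 0.63). Mrps15, an RNA-binding protein with a bacterial counterpart, read 9.27 and 9.52 against 9.69 and 9.71. Mrps31, a mitochondria-specific protein gene, read 8.80 and 8.90 against 9.21 and 9.06. In Mrps5, Mrps28, Mrps15 and Mrps31 alike, WT replicate 1 was the lowest array. Mrps23 and Mrps35, also mitochondria-specific, ran the other way. Mrps23 read 8.01 and 8.10 in WT against 7.66 and 7.78 in the arrays labelled Alox15-/-, a difference of -0.34 ± 0.13. Mrps35 read 9.93 and 9.79 against 9.61 and 9.48, a difference of -0.31 ± 0.14.

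**Figure D3:**
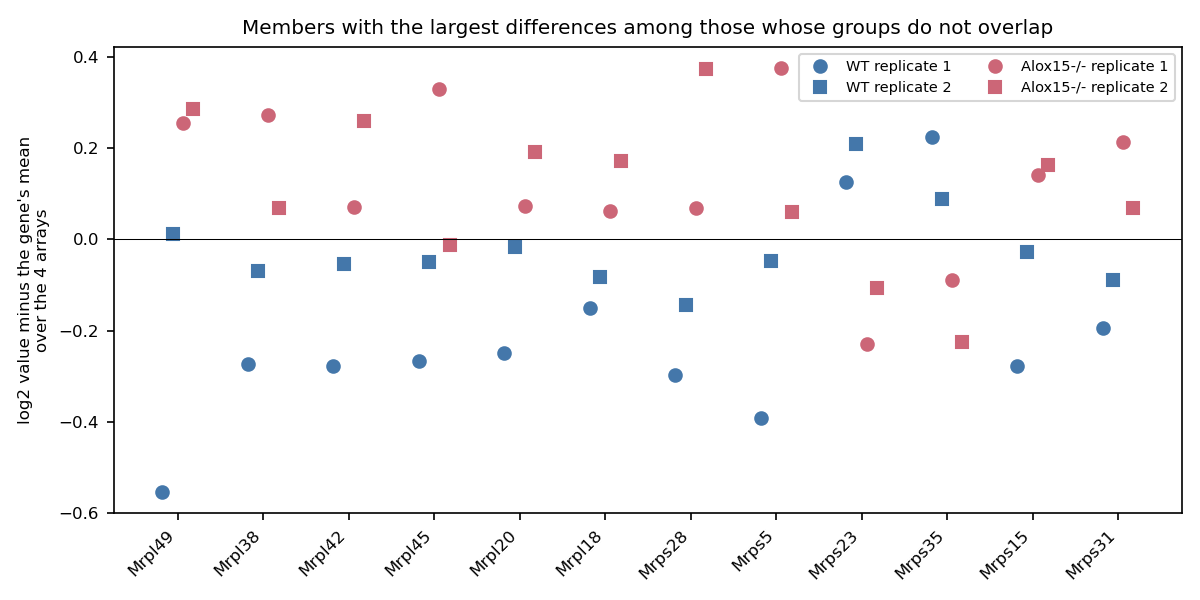
Log2 value minus the gene's mean over the 4 arrays, for the 6 large and 6 small subunit members with the largest differences among those whose groups did not overlap, with 1 point for each array. WT replicate 1 is the lowest point for 10 of the 12 genes, and Mrps23 and Mrps35 are the ones with WT above the arrays labelled Alox15-/-. Only genes without overlap could be chosen.

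Of the small subunit genes, 3 were named for a link to human disease, and their differences were near 0. For Mrps7, Mrps16 and Mrps22 the 95% intervals ran from -0.34 to 0.29, -0.30 to 0.37 and -0.37 to 0.44. These genes do not stand for all members linked to human disease, which were not gathered. Mutations of human MRPS7, MRPS16 and MRPS22 cause mitochondrial translation defects. Mrps7, a protein of the subunit's head, read 9.67 on both WT arrays against 9.63 and 9.65, the tightest set of the 3. Mrps16 read 8.36 and 8.23 against 8.36 and 8.30, and Mrps22 read 9.52 and 9.79 against 9.60 and 9.78, with overlap in both. The Mrps18 paralogs descend from a gene for 1 bacterial protein. Mrps18a read 8.78 and 8.81 in WT against 8.9975 and 8.41 in the other group, with the arrays labelled Alox15-/- enclosing WT and the 95% interval of the difference running from -0.65 to 0.46. Mrps18b read 9.86 and 9.82 against 9.84 and 9.77. Mrps18c read 11.34 and 11.46 against 11.34 and 11.37. Their differences were -0.09, -0.03 and -0.05, each of a sign that turned when 1 array was left out.

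Proteins with a bacterial counterpart and mitochondria-specific proteins gave nearly equal summaries. The 44 genes of the first class had a median difference of 0.06, with 27 above 0, and the 31 of the second a median of 0.08, with 19 above 0. On the arrays the first class averaged -0.05 and -0.02 in WT against -0.01 and 0.07 in the arrays labelled Alox15-/-. The second averaged -0.12 and 0.06 in WT against 0.02 and 0.05 in the other group, and the gap between the WT arrays was 0.18 for this class and 0.03 for the first. Without WT replicate 1 the median of the mitochondria-specific genes was -0.04. Within the large subunit as placed by structure, 21 of 29 genes with a counterpart and 12 of 20 specific genes had positive differences. Within the small subunit the counts were 6 of 15 and 7 of 11. The 3 members with an unadjusted limma p under 0.05 were all counted as mitochondria-specific, making 3 of 31 there, beside 7.77% of all genes. One of them, Mrps23, differed by 0.03 and 0.90 at its other probe sets. Unified naming nevertheless relates the Mrps28 protein to a bacterial one. Mrps18a and Mrps18b were also counted as mitochondria-specific and only Mrps18c with a counterpart, although these paralogs share a bacterial ancestor. The classes are thus no clean split by bacterial descent.

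Probe sets of the same member often disagreed. The members had 156 probe sets, and 42 of 76 genes had several. For 28 of these 42 the probe sets gave differences of opposite sign, and for 14 of one sign. Mrps23 was the widest. Its probe set with the highest mean gave -0.34, another gave 0.03, and the third read 6.42 and 7.16 in WT against 7.69 and 7.70, a difference of 0.90. The lower value of Mrps23 therefore held at 1 of 3 probe sets. Mrpl52 gave -0.03, 0.23, 0.19 and -0.84 at its 4 probe sets, and Mrpl54 gave -0.66 and 0.33. For Mrps5 all 5 probe sets were above 0, from 0.00 to 0.60, and for Mrpl49 both were, at 0.54 and 0.20. Mrpl38 gave 0.34, 0.16 and -0.02, and Mrps15 gave 0.31, 0.32 and -0.14. Of the 80 probe sets not used, 73 lay above the highest bacterial control on all 4 arrays.

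**Figure D4:**
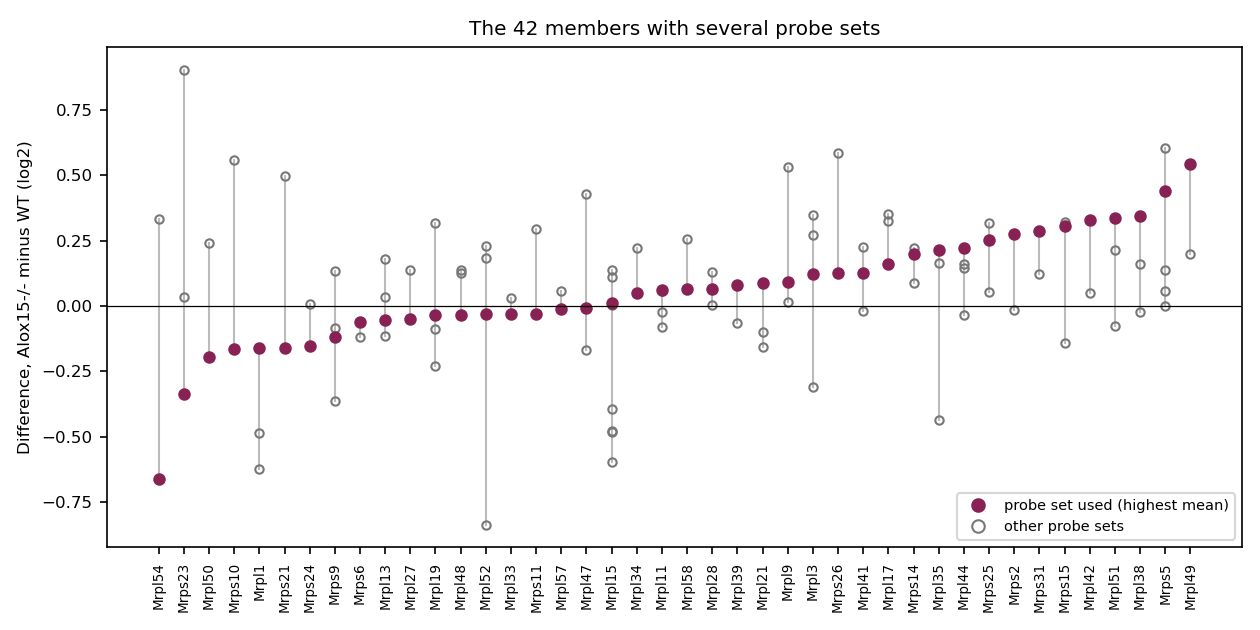
Difference between the arrays labelled Alox15-/- and WT (log2) for every probe set of the 42 members with several, ordered by the probe set used. Filled points are the probe sets with the highest mean, open points the others, and lines join those of a gene. The lines of 28 genes cross 0, the longest being that of Mrps23.

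Members lay on 17 chromosomes. On chromosome 11, which carries Alox15, 11 members were measured. Their median difference was 0.06, with 6 above 0, close to the 0.07 of the 65 members elsewhere. Groups did not overlap for 7 of the 11, against 41.3% of the 1443 measured genes of that chromosome. Mrpl38, Mrpl45, Mrpl12 and Mrpl22 had higher values in the arrays labelled Alox15-/-, with differences from 0.13 to 0.34, and Mrps23, Mrps24 and Mrps7 lower values, with differences from -0.34 to -0.03. The remaining members there, Mrpl10, Mrpl27, Mrpl55 and Mrpl58, overlapped between groups. Mrpl58, a member related to release factors, read 8.45 and 8.90 in WT against 8.64 and 8.84 in the other group.

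Some promoter features, which the choice of genes did not use, differed in frequency between the members and all genes. Each motif was found in only a minority of the members. RefSeq promoter sequences (GRCm38.p6, 250 bases before to 50 after a start) were found for 67 of the 76; those of Mrpl4, Mrpl13, Mrpl15, Mrpl19, Mrpl38, Mrpl54, Mrps28, Mrps34 and Mrps35 were not. The median GC content was 58.7%, against 52.7% over all promoters, and the median count of the dinucleotide CG was 21, against 7. The ETS and NRF1 cores below both contain CG, and the part of base composition in their shares was not tested. Motifs were searched on both strands. The ETS family core CCGGAAG, bound by GABP among others, was found in 25 of the 67 members (37.3%) and in 9.93% of all 27025 genes with a promoter. GCGCATGC, the core of the palindromic site of NRF1 whose matches on both strands can overlap, was found in 8 (11.9%, against 3.05%). AAGATGG, the YY1 core, was found in 13 (19.4%, against 7.28%), and TATAAA in 5 (7.46%, against 15.7%). Among the 14453 measured genes the shares were 15% for the ETS core, 4.68% for the NRF1 core, 7.53% for the YY1 core and 11.5% for TATAAA. By subunit, the NRF1 core was in 7 of 41 large and 1 of 26 small subunit promoters, and the ETS core in 14 and 11.

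Stretches before the start of 4 members are shown, with motif matches in capitals. Mrpl22 (chr11:58171514-58171663, plus strand) carries an ETS and an NRF1 core, Mrpl32 (chr13:14613038-14613187, minus strand) carries 4 matches to the NRF1 core, an overlapping pair among them, Mrpl46 (chr7:78783090-78783130, minus strand) is the whole stretch between its start and that of Mrps11, and Mrpl49 (chr19:6057756-6057905, minus strand) belongs to the large subunit member with the highest difference.
Mrpl22: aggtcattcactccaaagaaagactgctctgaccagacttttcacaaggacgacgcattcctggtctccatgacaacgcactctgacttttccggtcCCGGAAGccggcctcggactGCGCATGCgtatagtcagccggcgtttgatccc
Mrpl32: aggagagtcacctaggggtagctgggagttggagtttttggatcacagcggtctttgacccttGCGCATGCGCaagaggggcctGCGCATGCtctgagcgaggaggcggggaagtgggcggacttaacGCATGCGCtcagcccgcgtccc
Mrpl46: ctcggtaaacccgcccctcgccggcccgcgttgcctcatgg
Mrpl49: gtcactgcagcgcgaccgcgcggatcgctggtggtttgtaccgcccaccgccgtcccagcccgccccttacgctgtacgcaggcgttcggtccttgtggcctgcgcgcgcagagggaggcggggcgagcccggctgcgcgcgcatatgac

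Medians by motif content, with no test, were as follows. Members with the ETS core had a median difference of 0.03 and those without 0.11. For the NRF1 core the medians were 0.10 and 0.06, for the YY1 core 0.11 and 0.07, and for TATAAA, present in 5 members, -0.03 and 0.07. Mrpl22, with both cores, read 8.99 and 8.87 in WT against 8.9975 and 9.13 in the arrays labelled Alox15-/-. Mrpl32, with 4 NRF1 matches, read 9.32 and 9.27 against 9.44 and 9.43, a difference of 0.14 with replicates close together. These are descriptions of letters in a window and no factor's binding was measured.

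A facing gene on the opposite strand, with starts at most 500 bases apart, was found for 23 of the 67 members (34.3%), against 11.5% of all genes with a promoter and 15.2% of those measured. All facing genes were measured. They form 22 distinct pairs, since Mrpl46 and Mrps11 face each other, and the differences had the same sign in 7 pairs and opposite signs in 14, while Ighmbp2, which faces Mrpl21, had a difference of 0. Mrpl46 and Mrps11 face each other with starts 42 bases apart, across the stretch shown above, and differed by 0.16 and -0.03. Mrpl49 faces Fau, which encodes a cytosolic small subunit ribosomal protein fused to a ubiquitin-like protein, at 192 bases. Fau read 11.87 and 12.02 in WT against 11.95 and 11.85 in the arrays labelled Alox15-/-, a difference of -0.04 beside the 0.54 of Mrpl49. Mrps12 faces Sars2, the mitochondrial seryl-tRNA synthetase gene, and the pair differed by 0.11 and 0.10. Mrpl43 faces Twnk, the mitochondrial DNA helicase gene, with 0.03 and -0.04. Mrpl55 faces 2610507I01Rik on chromosome 11 at 55 bases. That transcript read 7.69 and 7.30 in WT against 5.09 and 5.55 in the arrays labelled Alox15-/-, a difference of -2.18 ± 0.22 (SE, limma adjusted p = 0.276), with the lower value under the highest bacterial control, while Mrpl55 read 7.80 and 7.90 against 7.63 and 8.00.

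Other genes of mitochondrial translation, RNA and DNA upkeep, and regulators of mitochondrial genes, did not pass the test either: 0 of 95 genes on the 6 lists were called by limma. Over all genes 1 of 18194 was called (0.0055%), so the absence of calls on these lists is the common outcome here too. Mitoribosomal protein genes with other symbols had a median difference of -0.09, with all 4 measured below 0. They were Dap3, a GTP-binding protein of the small subunit (10.20 and 10.06 against 9.94 and 10.12), Chchd1, Ptcd3 and Gadd45gip1. Of 13 translation factor genes 5 were above 0, with a median of -0.02. Oxa1l, which inserts new chains into the inner membrane, read 8.68 and 8.72 in WT against 9.11 and 9.03 in the arrays labelled Alox15-/- (0.37 ± 0.13, limma adjusted p = 0.63). Gfm2, which encodes a factor for ribosome recycling, read 8.08 and 7.95 against 7.71 and 7.65, a difference of -0.33. The groups overlapped for neither, but at each gene's lowest probe set the sign was the opposite (-0.14 for Oxa1l and 0.31 for Gfm2).

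Assembly and ribosomal RNA modification genes were evenly divided, 15 of 30 above 0, with a median of 0.00. Fastkd2, an RNA-binding protein needed to assemble the large subunit, read 8.97 and 9.47 in WT against 8.27 and 8.70 in the arrays labelled Alox15-/-, a difference of -0.73 ± 0.24 (limma adjusted p = 0.618). It was -0.36 with the mean of its probe sets, -0.15 at the lowest one and -0.48 without WT replicate 2. Gtpbp10, a GTPase of large subunit assembly, differed by -0.36, and by 0.18 at its lowest probe set. Mitochondrial tRNA synthetases and the amidation complex had 13 of 21 above 0 and a median of 0.10, with Gatb at -0.38 and Lars2 at -0.32. Without WT replicate 2 the median was 0.04 and Lars2 was at -0.13, and with the mean of probe sets they were 0.05 and -0.15. Transcription and RNA processing genes had 4 of 18 above 0 and a median of -0.07. Leaving out WT replicate 2 moved it to -0.14, and leaving out Alox15-/- replicate 2 to -0.12. Supv3l1, an RNA helicase of the degradosome, differed by 0.49, and Elac2, which cleaves tRNA ends, by -0.52, the latter with 7.34 and 8.07 in the arrays labelled Alox15-/- and a difference of 0.07 at its lowest probe set. Of the 9 regulators, the coactivator gene Ppargc1a read 6.53 and 6.04 in WT against 5.14 and 4.41 in the other group at the probe set used (-1.51 ± 0.30, limma adjusted p = 0.487). Both of the latter values lay under the highest bacterial control of their array, and the mean over its 5 probe sets gave a difference of -0.09. Its relative Ppargc1b read 7.45 and 7.09 against 7.94 and 7.69, a difference of 0.54. Nrf1, Gabpa and Yy1, whose motifs were counted above, differed by 0.11, 0.16 and 0.01.

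**Figure D5:**
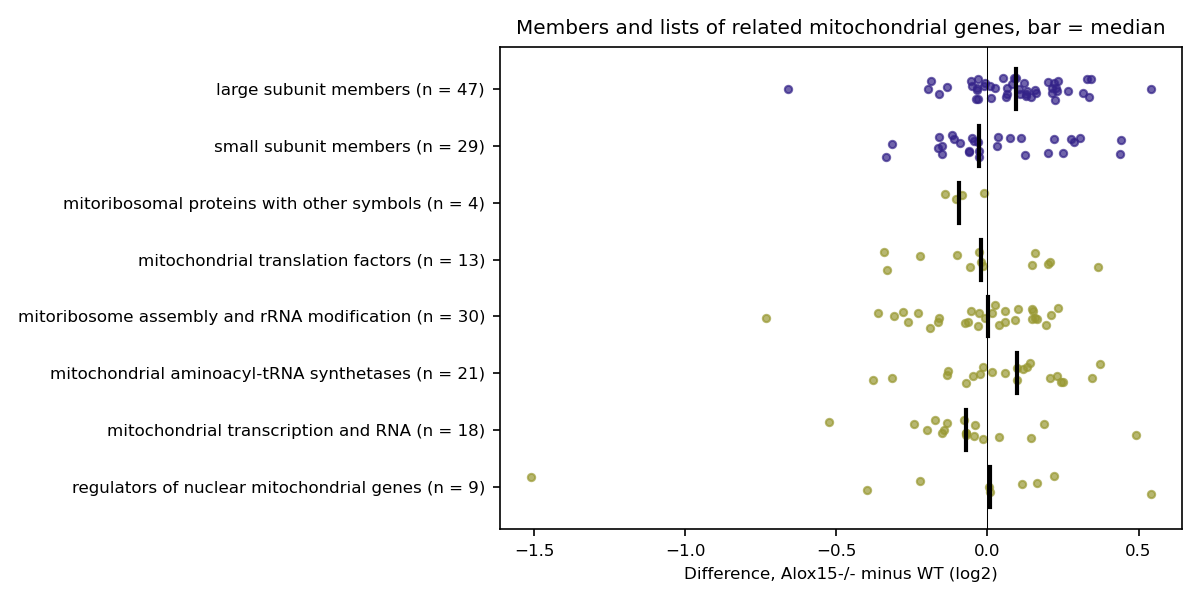
Difference between the arrays labelled Alox15-/- and WT (log2) for each large and small subunit member and each measured gene of 6 lists on mitochondrial translation, RNA and their regulators, with 1 point for each gene and a bar at the median. The medians lie between -0.09 and 0.10, and the point farthest from 0 is Ppargc1a at -1.51.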

How the data were processed

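RNA from sorted bone marrow cells was measured on 4 arrays, 2 for each genotype, grouped by title. The deposited values are log2 values made by the authors with Affymetrix Expression Console 1.1 and RMA, per the submitters' processing notes. RMA subtracts background, quantile-normalizes arrays and summarises probe sets, so shifts common to all genes are removed. The labelling kit named in the labels' protocols yields sense targets of whole transcripts, though this array design takes antisense ones. Of 45101 probe sets, 34958 had 1 symbol in the platform annotation, 932 several and 9211 none. No filter was used. The number of arrays limits the precision.

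Differences were fitted over 18194 genes with limma 3.58.1 in R 4.3.3 (lmFit, eBayes, two-sided, Benjamini-Hochberg, threshold 0.05); the code was tested on simulated data. Members, lists and the naming rule were chosen with earlier results of these data known. The rule named the 6 genes of each subunit with the largest differences without overlap, the 2 nearest to 0, chromosome 11 members, the Mrps18 paralogs, 12 genes of fixed role, members with probe sets over 1 apart and 2 genes of each list. Other names were picked after their values were seen. Replicate gaps of the groups correlated at -0.02 across genes. Figures used matplotlib 3.10.9.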

Additional observations from a re-analysis of the deposited data

How the results depend on the processing

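No member passed the threshold under any of the alternatives run. Calls over all genes numbered 22 with a mean-dependent prior variance, 3 with each gene's lowest probe set and 0 without any 1 array. Alox15 then still differed by 6.08 to 6.36, with a limma adjusted p of 0.172 to 0.328. Without variance moderation 1 gene was called, but not Alox15 (limma adjusted p = 0.703). The replicate block gave 1 call and 0 members, as in the fit without it, and changed no other call. The replicate numbers share only a name. Without 1 array, members whose groups did not overlap ran from 49 to 61 (a lone array overlaps less easily). The median difference of all members then ran from 0.0525 to 0.1162 and that of small subunit genes from -0.0288 to 0.0163. The large minus small subunit median difference ran from 0.0588 to 0.13. With the mean of a gene's probe sets the members' median was 0.11, the small subunit's 0.075 and the gap 0.0312. With the lowest probe set the last 2 were 0.0331 and 0.0956, and by structure 0.0022 and 0.0866; the cause was not tested.

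With all arrays kept, the prior variance, moderation, array weights, replicate block and gene filter settings left the differences as they were. The probe set settings could move only members with several probe sets. Many values were thus fixed in advance, and the share that changed is no measure of stability. Of 395 values of named members with all arrays kept, 16 changed sign. With the mean of probe sets these were Mrps23 at 0.20, Mrpl47 at 0.0829, Mrps11 at 0.13 and Mrpl27 at 0.0431. With the lowest probe set they were Mrpl38 at -0.0213, Mrps23 at 0.90, Mrps15 at -0.14, Mrpl47 at 0.43, Mrps11 at 0.30, Mrpl27 at 0.14, Mrps24 at 0.0081, Mrpl11 at -0.0238, Mrpl3 at -0.31 and Mrpl44 at -0.0338, beside Gadd45gip1 at 0.0813, Oxa1l at -0.14, Gfm2 at 0.31, Gtpbp10 at 0.18 and Elac2 at 0.065. Mrpl14 was -0.0125 after centring and -0.0143 after cyclic loess. The median difference of mitoribosome assembly and rRNA modification was -0.0169 after centring and -0.0121 after cyclic loess. The median difference of regulators of nuclear mitochondrial genes was -0.0119 after centring, -0.0278 with the mean of probe sets and -0.0606 with the lowest.

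Without 1 array, 15 named members changed sign. Mrpl14 ran from -0.13 to 0.145, Mrpl47 from -0.1238 to 0.1062, Mrps11 from -0.1788 to 0.1212, Mrpl10 from -0.225 to 0.4325, Mrpl58 from -0.165 to 0.2925, Mrpl55 from -0.2262 to 0.1488, Mrpl27 from -0.15 to 0.0475, Mrps18a from -0.3875 to 0.205, Mrps18b from -0.0675 to 0.0075, Mrps18c from -0.1075 to 0.0163, Mrps16 from -0.03 to 0.1025, Mrps22 from -0.1037 to 0.17, Mrps30 from -0.2325 to 0.01, Mrps36 from -0.1187 to 0.0163 and Mrpl52 from -0.1663 to 0.1037. Gadd45gip1 ran from -0.49 to 0.2075. List medians ran from 0.0406 to 0.1075 for synthetases, -0.1419 to -0.0509 for transcription and RNA genes, -0.1344 to 0.0219 for proteins with other symbols, -0.09 to 0.0688 for translation factors, -0.0625 to 0.0725 for assembly genes and -0.0375 to 0.17 for mitochondria-specific members. Counting Mrps28 with a bacterial counterpart, chosen after seeing the data, gave class medians of 0.07 and 0.07.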
